A study of Homo sapiens with 36 samples.

Results

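The 77 genes described here encode the proteins of the cytosolic ribosome, 46 of the large subunit and 31 of the small subunit. They were chosen by symbol among 35490 annotated genes: protein-coding genes named RPL or RPS with a number and at most an A or X suffix, together with RPLP0, RPLP1, RPLP2 and RPSA. Ribosomal S6 kinases, paralogs with an L suffix and the Y-linked copies of RPS4X were left out. The series measured poly(A) RNA in established human lines from acute myeloid leukaemia labelled wild type, MOLM-13 and MONO-MAC-6. Cells received the vehicle DMSO or A9, a PROTAC (a compound that brings a target protein to the degradation machinery) aimed at an IKK kinase and NR4A1. A9 was given at 0.125 µM to MOLM-13 and 0.25 µM to MONO-MAC-6, and RNA was taken after 72 h in all groups, so line and dose change together. Each of the 4 groups held 9 libraries with a pair of numbers in their labels. The first number was read here as the sample and the second as a repeat library, so that each group had 3 samples, each the mean of 3 libraries. The labels do not say this, and the other reading gives other counts of calls, which are given beside the results. Libraries with 1 first number held nearly the same share of ribosomal protein TPM, for example 24.9% to 25.2% in MOLM-13 DMSO sample 1. Nothing in the labels says that the samples came from separate cultures, so p-values measure the spread between these samples.

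A ribosome joins ribosomal RNA to one copy of nearly every ribosomal protein, so cells make these proteins in matched amounts. Most of their mRNAs begin with a C followed by an unbroken run of C and T, the 5′ terminal oligopyrimidine (TOP) tract, through which mTORC1 and LARP1 set how strongly they are translated. Ribosomal protein mRNAs are among the most abundant in dividing cells, leukaemia cells included. In blood, loss of 1 copy of RPS19 or of several other members causes Diamond-Blackfan anaemia, and RPS14 is the ribosomal gene lost with the long arm of chromosome 5 in myelodysplasia.

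The start regions are shown first because the shared tract is what the rule did not use. RefSeq promoters (GRCh38.p14) were matched for 62 of the 77 members, through 77 annotated starts. A C at the start followed by at least 4 C or T was present in 46 of the 62 (74.2%), against 5.14% of 27305 genes in the same table. The tract was 5 to 19 bases long, with a median of 8. The following sequences run from 60 bases before to 20 bases after the start, with the tract in capitals. They show RPLP0 and RPL12 of the stalk, RPS14 and RPS19 of the blood disorders, and RPS6 as the mTOR-linked member. Also shown are RPS3A and RPS10, with the lowest log2 changes under A9 in MONO-MAC-6, and RPL36A, with the highest in MOLM-13.
RPLP0 (chr12:120201092-120201171, minus strand): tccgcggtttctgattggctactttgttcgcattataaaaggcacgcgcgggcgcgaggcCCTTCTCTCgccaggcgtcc
RPL12 (chr9:127451387-127451466, minus strand): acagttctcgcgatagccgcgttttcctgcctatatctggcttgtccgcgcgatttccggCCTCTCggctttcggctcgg
RPS14 (chr5:150449720-150449799, minus strand): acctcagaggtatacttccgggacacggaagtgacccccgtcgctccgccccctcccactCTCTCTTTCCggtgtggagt
RPS19 (chr19:41860195-41860274, plus strand): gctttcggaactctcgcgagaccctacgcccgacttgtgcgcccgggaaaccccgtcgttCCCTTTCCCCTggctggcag
RPS6 (chr9:19380217-19380296, minus strand): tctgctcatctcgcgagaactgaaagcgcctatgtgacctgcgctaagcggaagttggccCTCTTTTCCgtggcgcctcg
RPS3A (chr4:151099568-151099647, plus strand): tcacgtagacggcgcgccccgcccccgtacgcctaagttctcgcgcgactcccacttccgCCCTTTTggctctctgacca
RPS10 (chr6:34426050-34426129, minus strand): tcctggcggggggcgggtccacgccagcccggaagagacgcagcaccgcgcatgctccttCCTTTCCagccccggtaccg
RPL36A (chrX:101390951-101391030, plus strand): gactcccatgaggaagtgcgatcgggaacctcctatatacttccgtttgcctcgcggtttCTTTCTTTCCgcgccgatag

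Among the 16 matched members whose annotated start carries no such tract were RPL3, RPL4 and RPS4X, shown because their levels followed the other members least closely, apart from members with low or partial sums. The rest of the matched members without a tract followed more closely. Their Pearson's r with the mean of the other members, described below, ran from 0.87 (RPL15) to 0.99 (RPL27). With coding transcripts alone, r of RPS4X was 0.91. No capitals are used, since the tract is absent at the annotated base.
RPL3 (chr22:39319604-39319683, minus strand): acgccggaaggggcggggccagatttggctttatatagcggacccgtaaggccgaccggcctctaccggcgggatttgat
RPL4 (chr15:66504836-66504915, minus strand): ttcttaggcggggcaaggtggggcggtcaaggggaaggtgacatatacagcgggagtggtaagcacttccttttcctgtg
RPS4X (chrX:72277229-72277308, minus strand): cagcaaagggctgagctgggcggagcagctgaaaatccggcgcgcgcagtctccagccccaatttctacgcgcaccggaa

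An annotated start can sit a few bases from the one a cell uses. RPL4 had a run of 12 C and T within 10 bases of its annotated start, and 52 of the 62 members (83.9%) had such a run of at least 8, against 18.3% of all genes. The 300-base windows were also searched on both strands for other motifs; overlaps between motifs were not counted. CCGGAAG, the core of an ETS factor site, was in 35.5% of members and 12.2% of all genes, and AAGATGGC in 9.68% and 3.52%. TATAAA was in 8.06% and 14%. These matches are descriptions of the letters in these windows.

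The values are TPM (transcript abundances scaled to a fixed sum), which correct for transcript length and add up to the same total in every library. Levels can therefore be compared between genes, while a rise of one large family lowers the shares of others. TPM hold no counts, so the depth behind each value is unknown. Ribosomal protein genes held 25.1%, 27.0% and 29.1% of TPM in MOLM-13 DMSO samples 1 to 3, and 26.7%, 25.97% and 30.4% in the A9 samples. In MONO-MAC-6 the DMSO samples held 26.3%, 19.7% and 19.1%, and the A9 samples 17.1%, 17.3% and 17.2%. The A9 samples of MONO-MAC-6 were all below its DMSO samples, and the groups of MOLM-13 overlapped. For MOLM-13 the mean was 27.0% ± 2.01 (SD, n = 3) under DMSO and 27.7% ± 2.38 (SD, n = 3) under A9. For MONO-MAC-6 it was 21.7% ± 3.999 (SD, n = 3) and 17.2% ± 0.063 (SD, n = 3). The large subunit held 1.29 to 1.41 times the TPM of the small subunit across the 12 samples, so the subunits kept a narrow ratio while the total ranged from 17.1% to 30.4%.

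**Figure D1:**
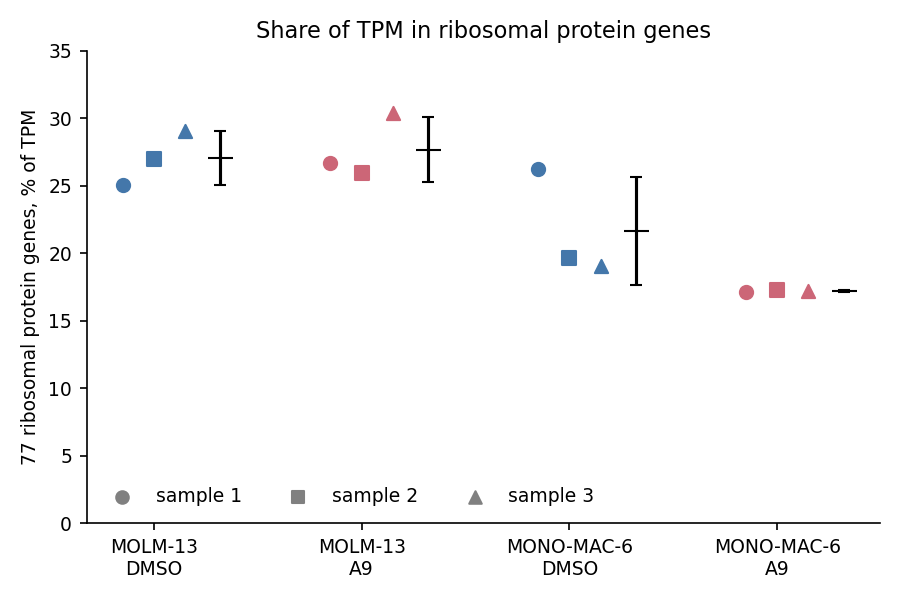
Share of all TPM held by the 77 ribosomal protein genes in each sample (y axis, percent; circle, square and triangle are samples 1, 2 and 3; the black bar is the group mean with its SD, n = 3). MONO-MAC-6 DMSO sample 1, at 26.3%, lies near the MOLM-13 samples, and the 3 A9 samples of MONO-MAC-6 lie between 17.1% and 17.3%.

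MONO-MAC-6 DMSO sample 1 stood apart from the other samples of its line, and the counts of members called in that line are given with and without it. Its mitochondrially encoded share was 6.12% of TPM, against 8.76% to 9.44% in the other 5 samples. Across all genes, the Spearman correlation of its deviation from the line's mean with length was -0.47, against 0.15 to 0.35 in the other 5. In MOLM-13 that correlation ran from -0.49 in A9 sample 3 to 0.52 in DMSO sample 1. Of 11 myeloid markers all reached 1 TPM in at least 1 sample, although CD14 was at about 0.30 TPM in MOLM-13 DMSO. With A9 in MONO-MAC-6, LYZ (lysozyme of myeloid cells) rose by 1.17 and CD14 (a monocyte receptor) by 1.77 on the log2 scale (limma adjusted p 0.00274 and 0.00256), and LYZ rose by 1.29 in MOLM-13 (limma adjusted p 0.00517). For the MONO-MAC-6 cells, SPI1 (a myeloid transcription factor) was also higher with A9, with a log2 change of 0.38 (limma adjusted p 0.0452). KRT18 (an epithelial keratin) was lower in those cells, with a log2 change of -0.78 (limma adjusted p 0.0262). From its list, KRT8 and EPCAM also had lower means there, while COL1A1, COL1A2 and PECAM1 (86.5 TPM with DMSO and 202 with A9) had higher ones. Of the myeloid markers, MPO (51.9 and 37.7 TPM), FLT3 (764 and 650) and AZU1 (292 and 247) had lower means with A9 in MONO-MAC-6. The other myeloid markers had higher means. The part of these markers in the ribosomal protein values was not tested. CD3E and CD2 (T cells), MS4A1 (B cells) and HBB (erythroid cells) were at 0 in every group. RNA per cell and the number of cells cannot be told apart in these bulk samples.

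Levels under DMSO spanned a wide range. The highest was RPS18, a protein of the small subunit head, in MOLM-13 at 12209 TPM on average, and RPL21 in MONO-MAC-6 at 12420 TPM. In MOLM-13, 73 of 77 members lay at 1000 TPM or more, and in MONO-MAC-6 70 did. RPL23 was lowest in both lines, at 41.0 and 24.2 TPM, and RPS27 and RPS9 averaged 56.0 and 201 TPM over all libraries. For RPS27 the coding transcript of the annotation was not among the matched ones, so its sum holds transcripts annotated as non-coding alone and does not give its mRNA level. Transcripts that could not be assigned to any gene held 8.62% to 10.2% of TPM, so other sums may also be partial.

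Log2 levels of the 77 genes under DMSO correlated between the lines with Pearson's r of 0.94 and Spearman's rho of 0.80, a description across genes that share the same libraries. Of the members, 63 were higher in MOLM-13. At least 1 log2 unit separated the group means of 7 members, while 24.7% of all 12928 genes expressed in either line were as far apart. RPL9, RPL3, RPL10, RPL6, RPS4X and RPL26 were lower in MONO-MAC-6 and RPL21 was higher. RPL21 stood at 5566, 6135 and 6430 TPM in MOLM-13 DMSO and at 15100, 11645 and 10514 TPM in MONO-MAC-6 DMSO. RPL9 stood at 1977, 2230 and 2362 TPM in MOLM-13 and at 986, 688 and 668 TPM in MONO-MAC-6, a difference of -1.49 (log2). Neither gene's samples overlapped between the lines.

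In MONO-MAC-6, 75 of the 77 members had a lower mean with A9 than with DMSO, against 29.5% of all genes, and for 68 all 3 A9 samples lay below all 3 DMSO samples. That order was seen in 10.7% of the 12876 genes tested. The median log2 change of the members was -0.29, against 0.16 over all genes tested, and single values ran from -0.51 to 0.15. Nevertheless 0 of 77 members passed limma's adjusted p under 0.05, while 3.36% of all genes did, 0.854% as lower and 2.51% as higher. At an unadjusted p under 0.05 there were 36 members, all of them lower, against 20.4% of all genes in either direction and 6.16% lower. Both subunits had lower medians: the median change was -0.30 for the 46 large subunit genes and -0.28 for the 31 small subunit genes.

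The call depended on DMSO sample 1. Without it, 52 of 77 members passed the adjusted threshold of limma as lower with A9 and 0 as higher, against 10.3% of all genes called lower and 24.8% called in either direction. The median change was then smaller, -0.16 against 0.03 over all genes. All 3 A9 samples lay below both remaining DMSO samples for 69 members, and for 23.4% of all genes. Leaving out DMSO sample 2 or 3 in its place, or any A9 sample, gave 0 members called. The share of all genes called in those fits was not tallied. Without DMSO sample 2 or 3, all A9 samples lay below both remaining DMSO samples for 69 and 71 members, against 12.6% and 13% of all genes. Each library taken as a sample gave 69 members and 43.4% of all genes, and averages by second number 75 members and 67.6% of all genes. Median-ratio scaling left 3 members at an unadjusted p under 0.05, against 21.9% of all genes. The A9 samples differed less from each other: their median SD over members was 0.02 on the log2 scale, against 0.26 among the DMSO samples. Over all genes tested the values were 0.066 and 0.25, and over mitochondrial ribosomal protein genes 0.047 and 0.17, so the contrast was not limited to this family.

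**Figure D2:**
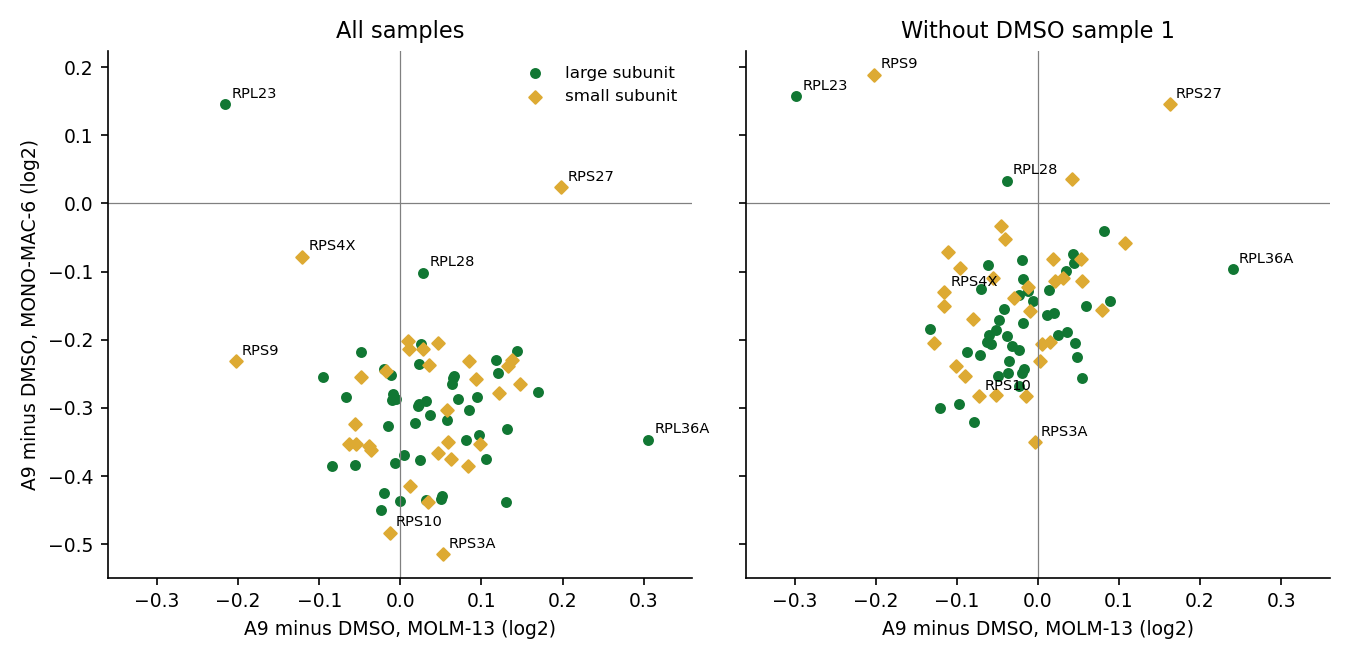
Log2 change with A9 for each of the 77 genes in MOLM-13 (x axis) and MONO-MAC-6 (y axis), from all samples on the left and without DMSO sample 1 of each line on the right (circles, large subunit; diamonds, small subunit). Nearly all points lie below 0 on the y axis on both sides, while on the x axis they spread around 0. On the left RPL23 and RPS27 lie above 0; on the right RPS9, RPL28 and RPS28 join them.

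The P stalk, which recruits the translation GTPases, consists of RPLP0, RPLP1 and RPLP2 on the base formed with RPL12. RPLP0 stood at 5076, 3632 and 3526 TPM in the DMSO samples of MONO-MAC-6 and at 2951, 2979 and 2987 TPM in the A9 samples. The A9 samples agreed closely and lay below all DMSO samples. Its log2 change was -0.44 (SE 0.15, limma adjusted p 0.186), and -0.27 without DMSO sample 1 (limma adjusted p 0.000986). RPL12 stood at 3256, 2939 and 2759 TPM with DMSO and at 2329, 2294 and 2221 TPM with A9. It had the smallest adjusted p of the family, 0.0831 in limma, with a log2 change of -0.38 (SE 0.09), and -0.32 without DMSO sample 1 (limma adjusted p 0.00123). DMSO sample 1 stood out less in RPL12 than in RPLP0. RPLP1 and RPLP2 had log2 changes of -0.23 and -0.25 and did not pass without that sample either (limma adjusted p 0.202 and 0.18).

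RPL5 and RPL11 form a particle with 5S ribosomal RNA that also binds MDM2 when ribosome assembly fails. RPL5 stood at 1921, 1649 and 1568 TPM with DMSO and at 1306, 1306 and 1306 TPM with A9 in MONO-MAC-6, groups that did not overlap. Its log2 change was -0.39 (SE 0.10, limma adjusted p 0.097). RPL11 stood at 3661, 3085 and 2969 TPM with DMSO and at 2672, 2743 and 2704 TPM with A9, a log2 change of -0.25 (limma adjusted p 0.229). Without DMSO sample 1, both passed the threshold of limma, at -0.30 (adjusted p 0.000968) and -0.16 (adjusted p 0.0116).

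The 9 listed proteins of the peptide exit tunnel had log2 changes of -0.43 to -0.22, with all A9 samples below all DMSO samples for 9 of 9 (10.7% of all genes). The 9 listed proteins of the decoding site and mRNA channel ranged from -0.41 to -0.20, and for 6 the groups did not overlap. Without DMSO sample 1, limma called 8 of the first and 4 of the second as lower, against 10.3% of all genes. Among the 13 listed genes tied to Diamond-Blackfan anaemia or to the chromosome 5 deletion, the range was -0.48 to -0.21. RPS19 stood at 4189, 2711 and 2625 TPM with DMSO and at 2422, 2373 and 2378 TPM with A9. The difference was larger with DMSO sample 1 than without: the log2 change was -0.37 (limma adjusted p 0.304) with it and -0.16 (limma adjusted p 0.0116) without it. RPS14 stood at 3447, 2380 and 2346 TPM with DMSO and at 2034, 2020 and 2105 TPM with A9. Its changes were -0.38 and -0.20, with limma adjusted p of 0.244 and 0.00474.

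The lowest log2 changes in MONO-MAC-6 belonged to RPS3A, RPS10, RPL32, RPS15A and RPL24. RPS3A, a protein of the small subunit platform side, stood at 1842, 1402 and 1223 TPM with DMSO and at 1038, 1045 and 999 TPM with A9. Its log2 change was -0.51 (SE 0.15, limma adjusted p 0.143), and it was also the lowest member without DMSO sample 1, at -0.35 (limma adjusted p 0.00438). RPS10, which binds near the mRNA entry, stood at 5552, 3735 and 3596 TPM with DMSO and at 2967, 2960 and 3110 TPM with A9. The change of RPS10 was -0.48 (limma adjusted p 0.2), and -0.28 without DMSO sample 1 (limma adjusted p 0.00153). For both genes the A9 samples lay below every DMSO sample. RPL32, RPS15A and RPL24 had log2 changes of -0.45, -0.44 and -0.44, and each passed in limma without that sample (adjusted p 0.000787, 0.00192 and 0.00283).

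RPS6, the small subunit protein phosphorylated by S6 kinase, stood at 3337, 2490 and 2412 TPM with DMSO and at 2148, 2128 and 2101 TPM with A9 in MONO-MAC-6. RPSA, also known as the laminin receptor precursor, stood at 2147, 1471 and 1520 TPM with DMSO and at 1345, 1329 and 1369 TPM with A9. RPL41, the shortest ribosomal protein, stood at 7674, 5434 and 5717 TPM with DMSO and at 5141, 5165 and 5023 TPM with A9. For each of the 3, all A9 samples lay below all DMSO samples, as for 10.7% of all genes, and DMSO sample 1 was the highest. Their log2 changes were -0.35, -0.32 and -0.28 (limma adjusted p 0.219, 0.29 and 0.313). Without DMSO sample 1 they were -0.21, -0.15 and -0.13 (limma adjusted p 0.00398, 0.0175 and 0.034).

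**Figure D3:**
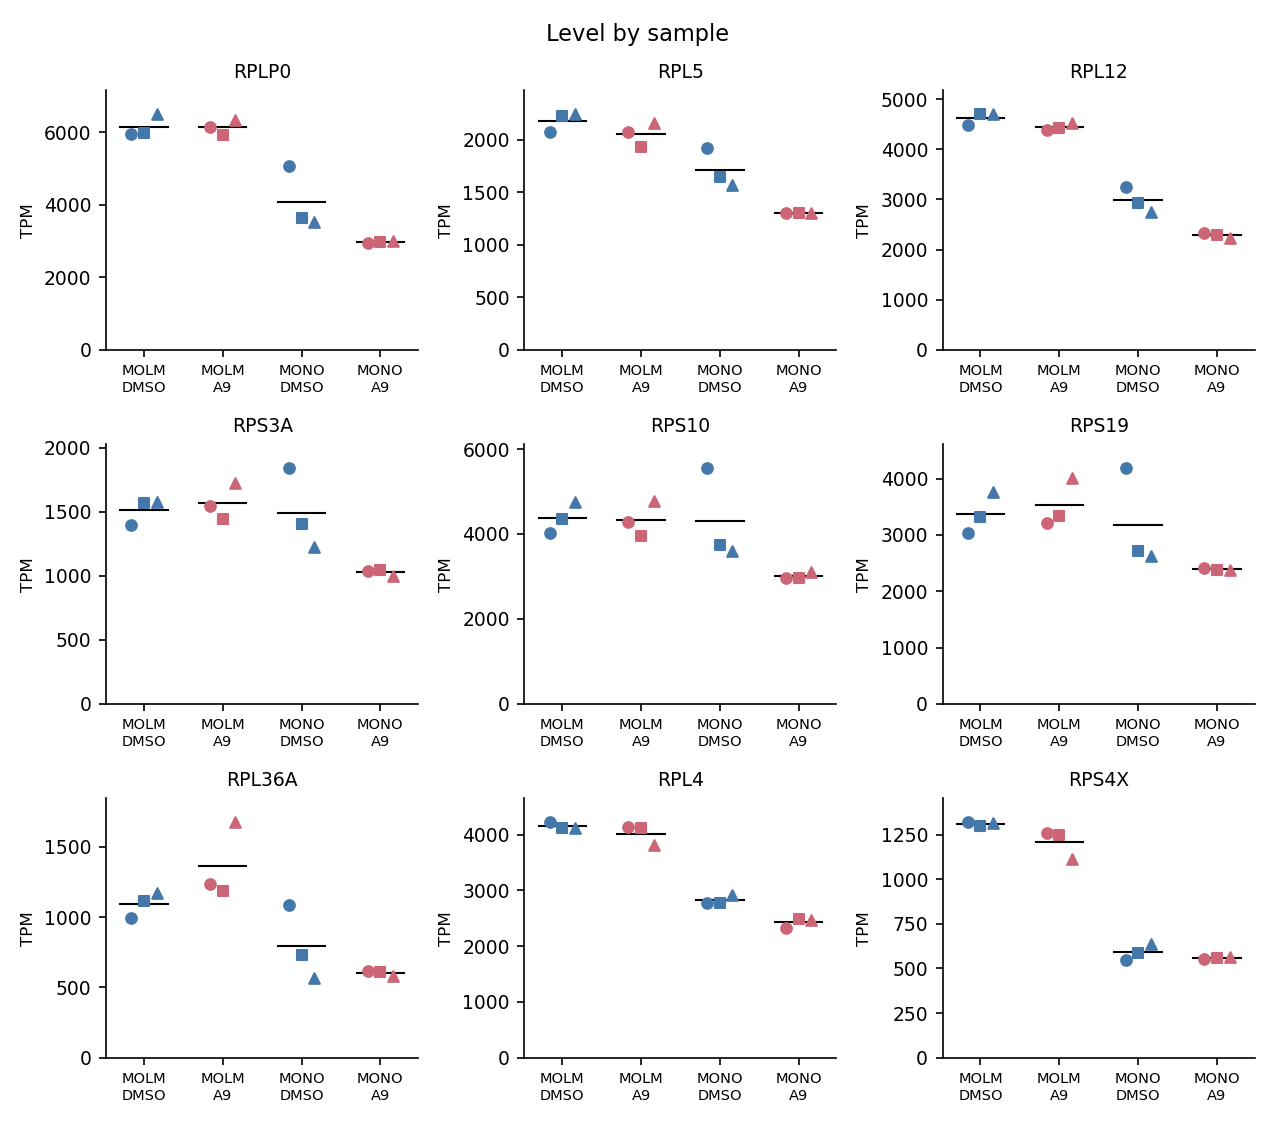
TPM of 9 ribosomal protein genes in each sample (y axis, starting at 0; circle, square and triangle are samples 1, 2 and 3; blue is DMSO and red A9; the line is the group mean, n = 3). In the top and middle rows the A9 samples of MONO-MAC-6 lie together below the DMSO samples, of which sample 1 is highest; RPL4 and RPS4X in the bottom row lack a high DMSO sample 1.

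The members with the highest log2 changes in MONO-MAC-6 were RPL23, RPS27, RPS4X, RPL28 and RPS15. RPL23, a large subunit protein that also binds MDM2, stood at 24.6, 25.1 and 22.9 TPM with DMSO and at 27.0, 27.3 and 26.3 TPM with A9. All its A9 samples were above all DMSO samples, as for 27.2% of all genes. Its log2 change was 0.15 (limma adjusted p 0.391), or -0.03 with median-ratio scaling. The median member stood at 2605 TPM with DMSO, so the sum of RPL23 was far lower and may be partial. RPS27 had a change of 0.02, from its non-coding transcripts alone. RPL28 stood at 1584, 1132 and 1263 TPM with DMSO and at 1200, 1223 and 1250 TPM with A9, groups that overlapped. The log2 change of RPL28 was -0.10, and 0.033 without DMSO sample 1 (limma adjusted p 0.634 and 0.664). RPS9 stood at 337, 150 and 131 TPM with DMSO and at 130, 259 and 121 TPM with A9, so A9 sample 2 and DMSO sample 1 each stood far above the others of their group. The spread of RPS9 exceeded its change, which was -0.23 with all samples and 0.19 without DMSO sample 1.

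In MOLM-13 the family did not shift in one direction. With A9, 51 members had a higher mean and 26 a lower one, with a median log2 change of 0.03 against -0.05 over all genes tested. That median was -0.02 without DMSO sample 1, -0.03 without A9 sample 3 and -0.01 with the length trend removed, so its sign depended on these choices. Limma called 0 of 77 members at an adjusted p under 0.05, against 0.121% of all 11602 genes (0.0345% lower and 0.0862% higher). At an unadjusted p under 0.05 there were 0 members, against 7.89% of all genes, while 3.21% of all genes passed with a lower level. Of all genes 61.2% had a lower mean. The change ran from -0.22 to 0.31, and the smallest adjusted p was 0.705. All A9 samples lay above all DMSO samples for RPL36A alone and below them for RPS4X alone, orders seen in 8.58% and 6.42% of all genes. The call of 0 held in limma when any 1 of the 6 samples was left out; without DMSO sample 1, 0.026% of all genes were called and 0% as lower. Each library taken as a sample gave 5 members and 15% of all genes, averages by second number 59 members and 46.9% of all genes, removal of the length trend 0 members and 1.53% of all genes. Median-ratio scaling gave 0 members at an unadjusted p under 0.05 and 10.2% of all genes.

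RPL36A, an X-linked large subunit protein, had the highest change in MOLM-13. It stood at 995, 1113 and 1168 TPM with DMSO and at 1233, 1183 and 1676 TPM with A9, a log2 change of 0.31 (SE 0.14, limma adjusted p 0.705). A9 sample 3 was far above the other 2, and sample 2 exceeded the highest DMSO sample by little. RPS27, RPL36, RPS26 and RPL13 followed at 0.20, 0.17, 0.15 and 0.14. At the other end, RPS4X stood at 1320, 1297 and 1312 TPM with DMSO and at 1259, 1246 and 1114 TPM with A9, a log2 change of -0.12 (limma adjusted p 0.771). RPL23, RPS9, RPL14 and RPL5 had changes of -0.22, -0.20, -0.10 and -0.08.

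None of the disease-linked or stalk genes was called in MOLM-13. RPLP0 stood at 5946, 5988 and 6501 TPM with DMSO and at 6149, 5930 and 6342 TPM with A9, a log2 change of -0.00052. RPS19 stood at 3042, 3316 and 3762 TPM with DMSO and at 3221, 3337 and 4018 TPM with A9. RPS14 stood at 3347, 3665 and 4071 TPM with DMSO and at 3620, 3570 and 4596 TPM with A9. In each gene the groups overlapped. The changes of RPS19, RPS14, RPL11, RPS6, RPSA and RPL41 were 0.06, 0.08, 0.07, -0.05, -0.06 and -0.0091, all smaller than the SD between their DMSO samples, which ran from 0.08 to 0.15. The changes of RPS26 (0.15), RPL5 (-0.08) and RPL12 (-0.06) exceeded their DMSO SDs of 0.091, 0.063 and 0.041, with overlapping groups. RPLP1 and RPLP2 had changes of 0.12 each.

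An interaction term fitted over all 12 samples tested whether the A9 effect differed between the lines. The median member difference, MONO-MAC-6 minus MOLM-13, was -0.35 on the log2 scale, against 0.20 over all 13417 genes tested, and 75 of 77 members were below 0, as were 29.8% of all genes. Limma called 0 of 77 at an adjusted p under 0.05, with 2.99% of all genes called, 1.07% lower and 1.92% higher. At an unadjusted p under 0.05 there were 31 members, against 17.7% of all genes and 6.63% with a lower value; with median-ratio scaling there was 1, against 19% of all genes, although the median member difference was then -0.58. RPL12 came closest, with a difference of -0.33 (limma adjusted p 0.0965), and passed when MONO-MAC-6 DMSO sample 3 was left out, the only 1 of the 12 samples whose removal gave a call. RPL36A had the lowest difference at -0.65 (limma adjusted p 0.281), followed by RPL24 at -0.57, RPS3A at -0.57, RPL39 at -0.48 and RPL21 at -0.48. RPL23 was highest at 0.36 (limma adjusted p 0.204). The effect in MONO-MAC-6 is thus not shown to differ from that in MOLM-13 for any single member with all samples in.

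The DMSO samples differed from each other in the family as a whole. In MOLM-13, DMSO sample 1 was the lowest of the 3 for 74 of 77 members and sample 3 the highest for 72, against 18.03% and 21.1% of all genes. Of the 77 mitochondrial ribosomal protein genes, 56 and 54 showed the same order, while 67.4% of all genes were highest in DMSO sample 1. In MONO-MAC-6, DMSO sample 1 was the highest for 74 of 77 members, against 20.1% of all genes and 57 of the 77 mitochondrial ribosomal protein genes, while 71.2% of all genes were lowest there. The median SD among the DMSO samples was 0.11 for members and 0.15 for all genes in MOLM-13, and 0.26 and 0.25 in MONO-MAC-6. So the amount of spread was close to that of other genes. Its direction was shared by most members and by most mitochondrial ribosomal protein genes, and was opposite to that of most genes. DMSO samples 2 and 3 of MONO-MAC-6 differed by a median of 0.06 over members, and sample 1 exceeded their mean by a median of 0.45. In MONO-MAC-6 the SD of a member was larger among DMSO than among A9 samples for 76 of 77, and in MOLM-13 for 26. Over all genes this held for 11289 of 12876 and for 4650 of 11602, so most genes of MONO-MAC-6 showed it too.

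**Figure D4:**
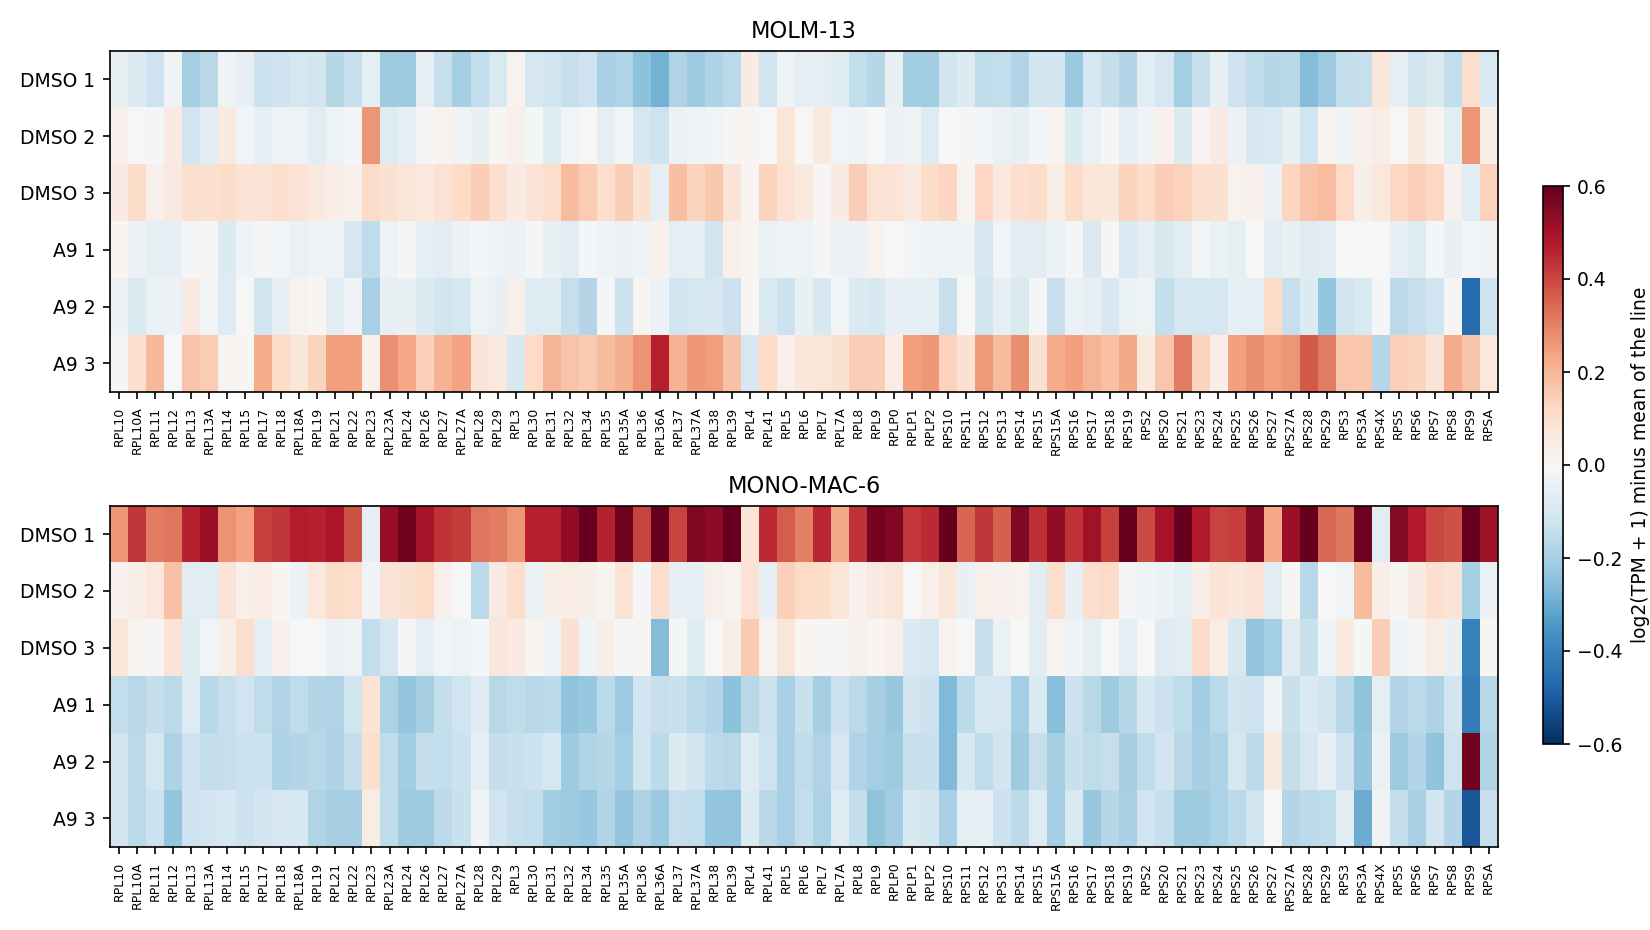
Each gene's log2(TPM + 1) in each sample minus its mean over the 6 samples of the line (colour, limited to 0.6 either way; columns are the 77 genes, rows the samples). MONO-MAC-6 DMSO 1 forms a red row broken at RPL23, RPL4 and RPS4X, the A9 rows below it are blue, and in MOLM-13 rows DMSO 1 and A9 3 hold most of the blue and red.

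Members varied in how far they moved with this shared pattern. In MOLM-13 RPL3, RPS4X and RPL4 had the smallest DMSO SDs, at 0.013, 0.013 and 0.022, and RPS28, RPS29 and RPL37 the largest, at 0.22, 0.20 and 0.18. In MONO-MAC-6 RPL4, RPL23 and RPL15 had the smallest, at 0.043, 0.067 and 0.11. RPS9, RPL36A and RPS28 had the largest there, at 0.74, 0.47 and 0.46. RPL4, which lines the exit tunnel, stood at 2774, 2779 and 2923 TPM with DMSO and at 2332, 2484 and 2469 TPM with A9 in MONO-MAC-6. Its DMSO sample 1 was thus not raised, and its A9 samples still lay below, a log2 change of -0.22 (limma adjusted p 0.185) and -0.23 without DMSO sample 1 (limma adjusted p 0.006). RPL3, which reaches the peptidyl transferase centre, stood at 1613, 1444 and 1390 TPM with DMSO and at 1205, 1221 and 1217 TPM with A9. Its log2 change was -0.28 (limma adjusted p 0.139), and -0.22 without DMSO sample 1 (limma adjusted p 0.00331).

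Ribosomal protein transcripts are short, with a TPM-weighted length of 302 to 1398 bases and a median of 690, against 2043 bases over the genes tested in MONO-MAC-6. Within the family, the excess of DMSO sample 1 over samples 2 and 3 had a Spearman correlation with length of -0.38 (MONO-MAC-6) and 0.31 (MOLM-13) across the 77 genes. For the A9 change itself the values were 0.20 and -0.24, and over all genes tested 0.25 and -0.31. Genes of one library are not independent, so these values are descriptions. When each sample's trend on length was removed, 2 members and 9.28% of all genes passed in MONO-MAC-6, RPL5 (log2 change -0.40, limma adjusted p 0.0428) and RPL12 (limma adjusted p 0.0357). The part of transcript length in the A9 result beyond that was not tested.

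**Figure D5:**
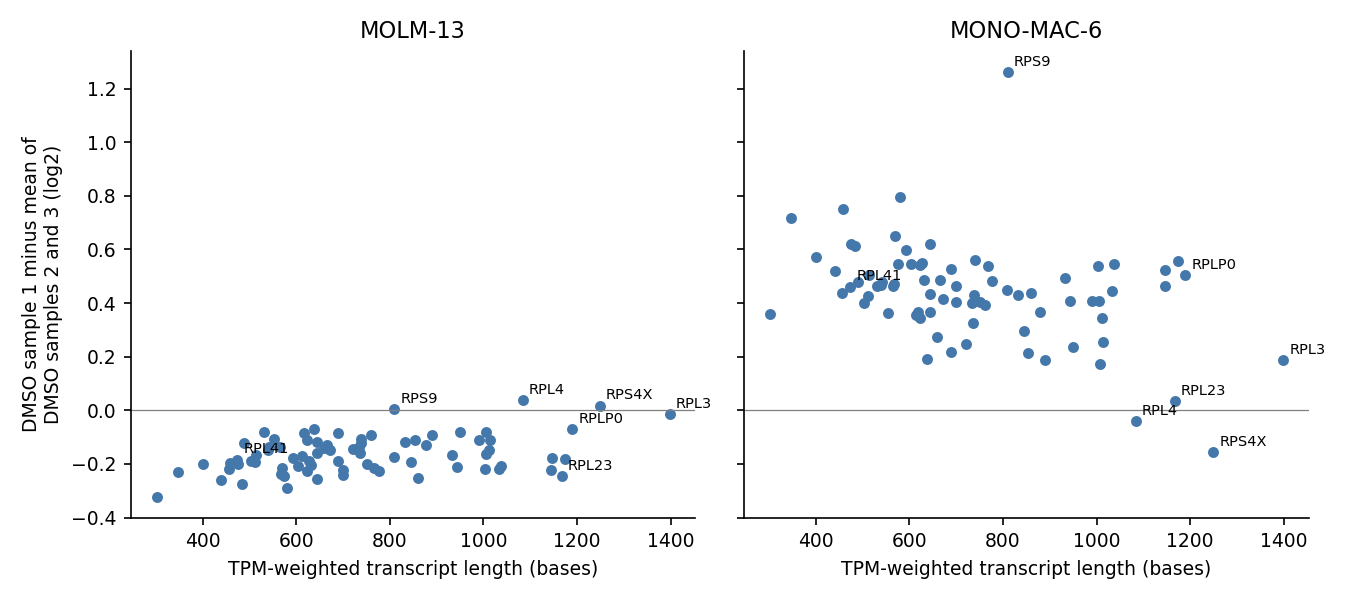
Log2 level of DMSO sample 1 minus the mean of DMSO samples 2 and 3 (y axis) against TPM-weighted transcript length in bases (x axis) for the 77 genes in each line. The difference is below 0 for most genes in MOLM-13 and above 0 for most in MONO-MAC-6, with RPL4, RPL23 and RPS4X at or below 0.04 in MONO-MAC-6 and RPS9 far above the rest.

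Likeness to the family was measured as Pearson's r between a gene and the mean of the other members over the 36 libraries, each line centred on its own mean. Libraries with 1 first number are nearly alike, so r describes these libraries. The median over members was 0.96, with 63 of 77 above 0.9, and RPL35A was closest at 0.99. For 5 members r lay at or below 0.5: RPS27 at 0.49, RPS9 at 0.44, RPL4 at 0.36, RPL23 at -0.04 and RPS4X at -0.29. Within MOLM-13 alone RPL3 also stood apart, at -0.53. Among 7171 other genes averaging 10 TPM or more, the median was -0.63, so most genes moved against the family in these libraries.

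The non-members most like the family were UQCRH (r 0.99), SNRPD2 (0.99), the annotated pseudogene RPL9P9 (0.99), CKS1B (0.98) and COX4I1 (0.98). UQCRH and COX4I1 are subunits of respiratory complexes III and IV, SNRPD2 is a spliceosome core protein and CKS1B a cofactor of cyclin-dependent kinases. Their transcripts were 579 to 894 bases long, within the range of the members. RPL9P9 is a processed copy of RPL9 with 876 TPM on average, so its reads and those of RPL9 cannot be told apart with certainty. The 1132 annotated pseudogenes of the members held 0.287% to 0.435% of TPM.

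Part of a member's sum can come from transcripts that the annotation does not call coding. Averaged over the samples, these held 90.4% of RPL14, 75.2% of RPS28, 70.5% of RPL37 and 63.0% of RPL4. RPS4X was the member whose coding share differed most between the lines: non-coding transcripts held 17.2% to 27.9% of it in MOLM-13 DMSO and 40.7% to 58.3% in MONO-MAC-6 DMSO. Its coding transcripts stood at 325, 284 and 265 TPM with DMSO and at 223, 229 and 235 TPM with A9 in MONO-MAC-6. Thus the coding sum was lower in all A9 samples, where the full sum overlapped. Its log2 change from coding transcripts was -0.34 (limma adjusted p 0.125), in place of -0.08. In MOLM-13 the coding sum stood at 952, 1036 and 1087 TPM with DMSO and at 1030, 937 and 1068 TPM with A9. The reverse was seen for RPL14 and RPL37 in MONO-MAC-6, where the full sums did not overlap and the coding sums did. Coding transcripts of RPL14 stood there at 146, 140 and 221 TPM with DMSO and at 140, 148 and 168 TPM with A9. Those of RPL37 stood at 595, 459 and 558 TPM with DMSO and at 500, 500 and 469 TPM with A9.

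With coding transcripts alone, the likeness of RPS4X to the family rose from -0.29 to 0.91. The same step lowered RPL14 from 0.88 to -0.16, RPL8 from 0.99 to 0.27, RPL37 from 0.95 to 0.71 and RPS3 from 0.94 to 0.76. These members had been close to the family. For RPL14 the step also moved the change in MOLM-13 from -0.10 to -0.41 (limma adjusted p 0.19). RPL4, already outlying, went from 0.36 to 0.07. RPL23, RPL3 and RPS9 stayed near their values, at 0.12, 0.74 and 0.43. The step thus did not bring the outlying members closer in general. How reads were split between the transcripts of a gene is an estimate whose error is not in the files.

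To see whether members moved within the ribosomal pool, each sample was divided by its summed ribosomal protein TPM, a step chosen after the values were seen. Limma then called 0 members in either line, with 0.0431% of all genes called in MOLM-13 and 1.66% called for MONO-MAC-6. The median member change was then -0.0013 and 0.02. Dividing by the members' own sum takes out any shift they share, so a median near 0 was set in advance. The step therefore bears only on members that differ from the rest.

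Other genes of the translation machinery were taken from lists. Of 27 translation factors and other genes with TOP tracts, 26 were tested and 0 were called in either line, with a median log2 change of -0.06 in MOLM-13 against -0.12 in MONO-MAC-6. Leaving out DMSO sample 1 in MONO-MAC-6, 11 were called lower and 2 higher, against 10.3% of all genes lower and 24.8% in either direction. EEF1B2, a subunit of the elongation factor 1 exchange complex, stood at 765, 593 and 554 TPM with DMSO and at 469, 463 and 455 TPM with A9. Its log2 change was -0.45 (limma adjusted p 0.133) and -0.31 without that sample (limma adjusted p 0.00171). EEF1A1 and EIF3F had log2 changes of -0.34 and -0.33. On the higher side, PABPC4 (a poly(A)-binding protein), EIF4A2 (a helicase of initiation) and IPO5 (a nuclear import receptor) had log2 changes of 0.40, 0.40 and 0.32. Of these, EIF4A2 and PABPC4 were the 2 called higher without DMSO sample 1 (limma adjusted p 0.00305 and 0.0223).

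Of 11 genes of mTORC1 and LARP1 control, 0 were called in either line. In MONO-MAC-6 the median change was 0.21, and 0.06 without DMSO sample 1, where all genes had 0.16 and 0.03. LARP1, which binds TOP tracts, stood at 28.9, 40.5 and 51.8 TPM with DMSO and at 62.7, 56.2 and 52.9 TPM with A9. All its A9 samples lay above all DMSO samples, as for 27.2% of all genes (log2 change 0.53, limma adjusted p 0.229). TSC2, an inhibitor of mTORC1, had a log2 change of 0.43 (limma adjusted p 0.0892) and EIF4EBP1, a repressor of cap-dependent initiation, one of -0.48 (limma adjusted p 0.159). These 2 were also the genes called without DMSO sample 1, where 24.8% of all genes were called. TSC2 was then higher at 0.37 (limma adjusted p 0.00494) and EIF4EBP1 lower at -0.31 (limma adjusted p 0.00391). TSC1 and MLST8 had log2 changes of 0.59 and -0.20 without passing in either setting.

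Of 8 ribosomal protein paralogs, 6 were expressed enough to be tested and 0 were called. RPL22L1, the paralog that can replace RPL22, had the highest change in MOLM-13. It stood at 86.0, 97.7 and 101 TPM with DMSO and at 125, 125 and 166 TPM with A9. All its A9 samples lay above all DMSO samples, as for 8.58% of all genes (log2 change 0.53, limma adjusted p 0.258). RPL22 itself had a log2 change of 0.08. RPL36AL stood at 464, 342 and 342 TPM with DMSO and at 261, 268 and 257 TPM with A9 in MONO-MAC-6, a log2 change of -0.53 (limma adjusted p 0.0983), and -0.38 without DMSO sample 1 (limma adjusted p 0.000396).

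The 78 mitochondrial ribosomal protein genes, whose products form the ribosome inside mitochondria, served as a comparison. Of the 77 tested, 0 were called in either line, against 0.121% (MOLM-13) and 3.36% (MONO-MAC-6) of all genes. Their median change was 0.02 (MOLM-13) and -0.13 (MONO-MAC-6), where the cytosolic family had -0.29. All A9 samples lay below all DMSO samples for 30 of them in MONO-MAC-6, against 68 of the cytosolic family and 10.7% of all genes. Without DMSO sample 1, 20 were called lower and 3 higher with a median of -0.06, against 52 and 0 of the cytosolic family and 10.3% of all genes lower. MRPL33, with a log2 change of -0.46, had the smallest adjusted p of this class in MONO-MAC-6 (limma, 0.0591). The difference between the 2 families was not tested.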

How the data were processed

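Poly(A) RNA was measured in 36 libraries, 9 per group. The authors deposited TPM per Ensembl transcript, and the submitters' processing notes name kallisto, limma and GRCh38 without versions or roles. Here 162561 of 207175 transcripts matched GENCODE 29 (GRCh38) and held 89.8% to 91.4% of TPM. Their TPM were summed by gene. Libraries with the same first label number were averaged, which gave 3 samples per group; that the first number marks the sample is a reading of the labels. TPM hold no counts, so no counting interval is given.

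Genes averaging 1 TPM or more in any group were fitted on log2(TPM + 1) with limma 3.58.1 in R 4.3.3 (lmFit, eBayes with trend and robust). Two-sided p-values were adjusted over every gene tested (Benjamini-Hochberg), with a threshold of 0.05. Fold changes are on the log2(TPM + 1) scale. An exact permutation test of 3 against 3 samples could not pass that threshold. Tables and figures used Python 3.11.15, pandas 2.3.3 and matplotlib 3.10.9. On simulated data with 200 genes changed by 1.5 (log2), 85% were recovered for MOLM-13 (11602 genes) and 73.5% for MONO-MAC-6 (12876 genes). With changes of 0.5, 0% were recovered in either, and with nothing changed 0 genes were called.

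Members and lists were chosen with earlier results of these data known. Named genes were 8 members with set roles, the 5 highest and 5 lowest changes per comparison, the 3 largest and 3 smallest DMSO SDs per line, the 5 members least like the family, the 5 other genes most like it, and up to 3 per direction in each list. Alternatives were a pseudocount of 0.1, no filter, repeat libraries taken singly or averaged by second number, a replicate block, median-ratio scaling, removal of the length trend (lowess, span 0.3), coding transcripts alone, leaving out each sample, and, chosen after seeing the data, scaling by the ribosomal protein pool.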

Additional observations from a re-analysis of the deposited data

Results flagged for a closer look

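Among the listed genes, 3 had an A9 effect that passed the test of a difference between the lines. MRPL57, a mitochondrial large subunit protein, had a difference of -0.50 on the log2 scale (MONO-MAC-6 minus MOLM-13, limma adjusted p 0.0484), and was named after its value was seen. It stood at 35.2, 37.8 and 40.2 TPM with DMSO and at 40.04, 42.1 and 46.5 TPM with A9 in MOLM-13. In MONO-MAC-6 it stood at 42.5, 37.9 and 38.2 TPM with DMSO and at 32.5, 30.7 and 31.3 TPM with A9. Its log2 change was 0.18 within MOLM-13 (limma adjusted p 0.739) and -0.32 within MONO-MAC-6 (limma adjusted p 0.132), so neither passed alone. The other two were cell type markers that were too low in MOLM-13 to be tested there. CD14 had a difference of 1.73 (limma adjusted p 0.000215) and stood at 3.71, 2.66 and 3.05 TPM with DMSO and at 12.4, 13.1 and 13.5 TPM with A9 in MONO-MAC-6. CD79B, a B cell marker, had a difference of -0.79 (limma adjusted p 0.0401) and stood at 2.91, 3.62 and 3.55 TPM with DMSO and at 1.51, 1.09 and 2.01 TPM with A9 there. None of the 77 cytosolic members passed this test.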

How the results depend on the processing

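In both lines and for their difference, 0 members were called with a pseudocount of 0.1, no filter, median-ratio scaling or coding transcripts alone. Pool scaling also gave 0, but it takes out any shift the members share. Averaging libraries by second number, which mixes the 3 samples, gave 59, 75 and 76 members (46.9% and 67.6% of all genes in the lines). Treating each library as a sample gave 5 (RPL3, RPL14, RPL36A, RPS4X, RPS27), 69 and 68 (15% and 43.4% of all genes in the lines). The share of all genes called for the difference was not tallied in these settings, so 76 and 68 have no background to be read against. Removal of the length trend gave 2 in MONO-MAC-6 (9.28% of all genes). Leaving out 1 sample gave 0 to 52 there and 0 to 1 for the difference. Deviations of DMSO and A9 samples with the same first number had correlations of 0.36, -0.077 and 0.68 for MOLM-13. Samples of that line with unlike numbers had -0.68 to 0.63. For MONO-MAC-6 the values were -0.027, 0.088 and -0.091, against -0.13 to 0.13. Whether the numbers pair the samples was not tested. With the replicate block 0 members were called in each comparison. At an unadjusted p under 0.05 it gave 9 members in MOLM-13, 24 in MONO-MAC-6 and 41 for the difference, where the main fits gave 0, 36 and 31. The share of all genes with the block was not tallied. Median-ratio scaling moved the median of all genes in MONO-MAC-6 from 0.16 to 0.01 and that of members from -0.29 to -0.47, with 3 members at an unadjusted p under 0.05.

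The median DMSO SD was 0.0098 and 0.0095 in the 2 lines by second number, and 0.24 and 0.51 with median-ratio scaling. Leaving out 1 DMSO sample of MONO-MAC-6 gave 0.040 (without sample 1) to 0.32.

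Small changes turned sign, all without a call. With median-ratio scaling in MOLM-13, RPL4 had 0.0016, RPL41 0.041 and RPLP0 0.050, while for MONO-MAC-6 RPL23 had -0.027 and RPS27 -0.15. With coding transcripts alone in MOLM-13, RPL11 had -0.017, RPL4 0.032 and RPLP0 0.00032. With the length trend removed, the change was -0.028 for RPL37 (MOLM-13) and -0.016 for RPS27 (MONO-MAC-6). For the difference, RPL14 had 0.29 and RPS4X -0.32 with coding transcripts, RPS4X -0.19 with median-ratio scaling, and RPS9 0.0075 with the length trend removed. Leaving out 1 sample in MOLM-13 gave -0.013 to 0.11 for RPL11, -0.076 to 0.12 for RPL37, -0.071 to 0.054 for RPL41, -0.024 to 0.041 for RPLP0, -0.035 to 0.16 for RPS14, -0.0355 to 0.14 for RPS19, -0.011 to 0.26 for RPS28, -0.14 to 0.13 for RPS29 and -0.13 to 0.0035 for RPS6. For MONO-MAC-6 they ran from -0.21 to 0.033 for RPL28, -0.072 to 0.15 for RPS27, -0.37 to 0.036 for RPS28 and -0.58 to 0.19 for RPS9. For the difference they were -0.24 to 0.0056 for RPL28, -0.014 to 0.098 for RPS4X and -0.38 to 0.39 for RPS9. The causes were not tested. Depth is unknown, so its part in the spread was not tested.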
